A study of Mus musculus with 20 samples.

Results

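Cytochrome P450 families 1 to 3 are the haem enzymes of the endoplasmic reticulum that oxidise drugs, dietary chemicals, steroids, bile acids and fatty acids. Every probe whose gene name in the scanner files was Cyp1, Cyp2 or Cyp3 followed by a subfamily letter and digits was taken, which gave 66 probes for 43 gene names out of 41174 probes on the array. For each tissue, the probes kept were those flagged well above background on 4 or more of its 10 arrays. By that rule 55 probes (41 genes) were measured in liver and 51 probes (36 genes) in white adipose tissue (WAT). Of these, 44 probes were measured in both tissues, 11 only in liver and 7 only in WAT, and 4 more in neither. Over the whole array 24697 probes passed in liver, 32319 in WAT and 24363 in both.

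The series compared RORasg/sg (staggerer, here sg/sg) mice with wild-type (WT) mice. Staggerer mice carry, on both chromosomes, a natural deletion in the gene of the nuclear receptor RORa. All were male C57BL/6 mice aged 5 months, given a 35% fat diet lasting 6 weeks, so no group on a normal diet enters any comparison here. The 4 groups were sg/sg liver, WT liver, sg/sg WAT and WT WAT, with 5 arrays each. The design text gives 5 mice per genotype as the source of both tissues, and the labels do not say which liver and WAT arrays belong to the same mouse. The allele is carried in every tissue, and the fat depot is not named.

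P450 enzymes of these families need electrons from the reductase Por and a haem group. In liver they are made mainly by hepatocytes. Their genes are switched by receptors that sense chemicals (the aryl hydrocarbon receptor AHR for Cyp1, CAR for Cyp2b and PXR for Cyp3a) and, in rodents, by the pattern of growth hormone, which makes many Cyp2 and Cyp3 genes differ between males and females. In adipose tissue their levels are usually low, with Cyp2e1, Cyp1b1 and the fatty acid epoxygenases of Cyp2j among the better known members. RORa binds the half-site AGGTCA as a monomer.

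Levels are log2 spot intensities from which the array's own 75th percentile was subtracted, so that 0 marks that percentile. Differences are given as sg/sg minus WT on that log2 scale. Levels of different probes are not comparable, because probes differ in brightness. The share of spots well above background was 57.9 to 59.3% in sg/sg livers, 57.1 to 63.0% in WT livers, 72.5 to 80.8% in sg/sg WAT and 75.9 to 81.5% in WT WAT. No member spot was saturated. The Rora probes A_51_P477779 and A_52_P652442 were lower in sg/sg than in WT by the labels, with log2 differences of -2.86 and -2.88 in liver and -2.73 and -2.72 in WAT (limma adjusted p of at most 5.52e-05). Where the probes lie relative to the deletion was not tested. Hepatocyte markers summed to 12.29 to 12.48 in sg/sg livers and 11.84 to 12.26 in WT livers, on the log2 scale of the summed intensities. Adipocyte markers summed to 10.49 to 10.93 in sg/sg WAT and 9.70 to 10.41 in WT WAT, so both tissues carried the markers of their label. Liver arrays lay on 3 slides of which 1 held both genotypes (slide 2, with sg/sg replicates 1 to 3 and WT replicate 5). The WAT arrays lay on 3 other slides (4, 5 and 6) that each held both, so tissue and slide cannot be told apart, and in liver slide and genotype nearly so. In such bulk samples fewer cells of a type and less RNA per cell cannot be told apart.

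In liver, few P450 members passed the test between the genotypes: 3 of the 55 probes passed an adjusted p of 0.05 (limma, Benjamini-Hochberg over all 24697 probes), all lower in sg/sg, against 14.6% of all liver probes. Of all liver probes 8.09% were called higher and 6.48% lower. The 3 were probes of Cyp2a5, Cyp2a12 and Cyp2d22. At an unadjusted p under 0.05 there were 18 member probes (32.7%), close to the 32.4% of all liver probes, and the genotypes did not overlap on 6 member probes (10.9%) against 12.2% of all. Of the 6, 1 was higher (6.62% of all liver probes) and 5 were lower (5.56%). The median member difference was -0.09, beside 0.04 for all liver probes. Scaling each array by its median moved the median of all liver probes to -0.07, called 866 probes higher and 2290 lower (1999 and 1601 by the 75th percentile), and 7 members, all lower. Normexp background correction called 3063 higher and 1669 lower, and 3 members higher and 7 lower. All 3 calls were lost with the slide as a fixed block (adjusted p between 0.545 and 0.570), a fit in which 3 of all 24697 probes passed.

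The 5 Cyp2a probes had differences between -0.75 and -0.30 in liver, of which 2 passed, both lower, and 3 did not. Cyp2a5, the coumarin hydroxylase of mice, had levels of 6.73, 6.79, 6.56, 6.56 and 7.04 in sg/sg livers at probe A_52_P246255, against 7.63, 7.68, 7.33, 7.53 and 7.26 in WT livers. Every sg/sg array was below every WT array, and Cyp2a5 fell by 0.75 (SE 0.12, 1.68-fold, limma adjusted p = 0.00788), or by 0.57 within slide 2. Cyp2a12, a steroid and bile acid hydroxylase of mouse liver, had levels of 5.63, 5.44, 5.57, 5.65 and 5.75 in sg/sg livers, against 5.95, 5.83, 5.93, 5.90 and 5.91 in WT livers. Its groups did not overlap either, with a fall of 0.30 (SE 0.08, limma adjusted p = 0.0306) and of 0.37 within slide 2. The call was lost when any of 6 single arrays was left out (WT replicates 1, 3 or 4, sg/sg replicates 1, 2 or 3; adjusted p up to 0.0717). The second Cyp2a5 probe, A_52_P246252, lay just outside the threshold at -0.37 (adjusted p = 0.0510), and its sg/sg replicate 5, at 7.78, overlapped the WT range of 7.68 to 7.83. The 2 probes of Cyp2a4, a female-predominant testosterone hydroxylase, were at -0.37 (A_51_P377154, adjusted p = 0.0501) and -0.44 (A_52_P9703, adjusted p = 0.0791). Leaving out sg/sg replicate 5 brought both Cyp2a4 probes and A_52_P246252 of Cyp2a5 past the threshold.

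Cyp2a4 and Cyp2a5 are near-identical neighbours, so their probes may read each other's RNA. The 60-base probes A_51_P377154 (Cyp2a4, placed by the file headers at chr7:23212199-23212258 of mouse build mm7) and A_52_P246252 (Cyp2a5, chr7:23212221-23212279) overlap. In 30 bases of the overlap 3 bases differ, shown in capitals, which is all that tells the 2 readings apart there:
Cyp2a4 A_51_P377154: aggacacTTCgtagacttgcagaggatatt
Cyp2a5 A_52_P246252: aggacacAGAgtagacttgcagaggatatt
The called Cyp2a5 probe A_52_P246255 (chr7:23212159-23212218) shares 20 bases with the same Cyp2a4 probe without a mismatch, GTCAAAGGTACAGAAGAAAC, and the Cyp2a4 and Cyp2a5 signals are therefore uncertain as readings of single genes. Upstream of their starts, in RefSeq on GRCm38.p6, the windows of 250 bases of Cyp2a4 and Cyp2a5 were 97.6% identical.

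**Figure D1:**
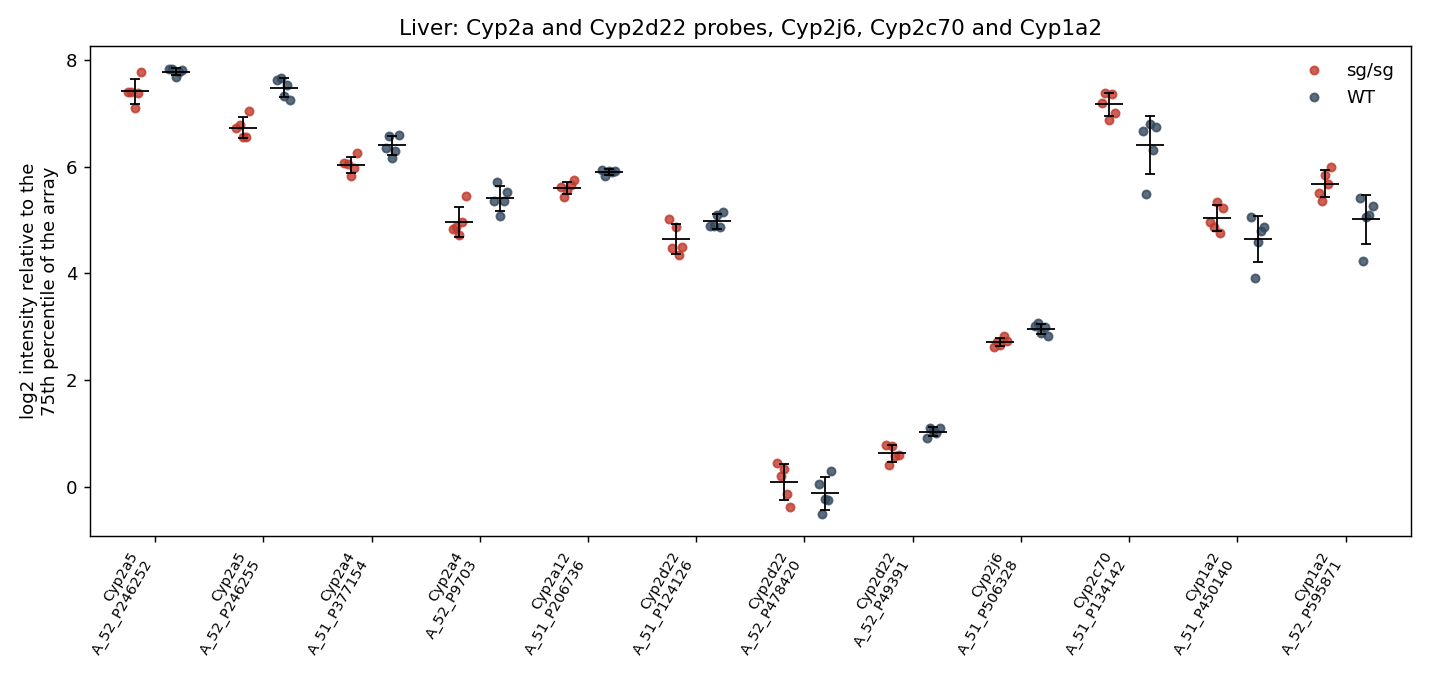
Levels of 12 member probes on the liver arrays (vertical axis, log2 intensity relative to the 75th percentile of the array), with sg/sg left of WT, 1 point per array and the mean with its SD as bars (n = 5 each). The sg/sg points lie below the WT points on Cyp2a5 A_52_P246255, Cyp2a12, Cyp2d22 A_52_P49391 and Cyp2j6, and above them on Cyp2c70.

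The Cyp2d subfamily, which in mice holds the male-predominant steroid hydroxylase Cyp2d9, had 1 of 9 probes past the threshold in liver. Cyp2d22 probe A_52_P49391 had levels of 0.79, 0.40, 0.77, 0.57 and 0.60 in sg/sg livers, against 0.91, 1.09, 1.05, 1.01 and 1.10 in WT livers, and fell by 0.41 without overlap (SE 0.09, limma adjusted p = 0.0198, within slide 2 -0.45). Without WT replicate 4 its adjusted p was 0.0510. The other Cyp2d22 probes disagreed with each other, at -0.34 (A_51_P124126, adjusted p = 0.118) and 0.22 (A_52_P478420, adjusted p = 0.461). Cyp2d26, the brightest member probe in liver, had levels of 8.58, 8.48, 8.45, 8.76 and 8.64 in sg/sg livers and 8.49, 8.43, 8.63, 8.44 and 8.77 in WT livers, a difference of 0.03 with a 95% interval of -0.18 to 0.24. The 2 Cyp2d9 probes, which share 27 bases, differed by 0.07 and -0.06. Cyp2d13 was at 0.48 (adjusted p = 0.0617).

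Among the 13 Cyp2c probes none passed, with differences between -1.50 and 0.77. Cyp2c70, which makes the muricholic acids of mouse bile, had levels of 7.21, 7.39, 6.89, 7.37 and 7.02 in sg/sg livers, against 6.67, 5.49, 6.80, 6.32 and 6.74 in WT livers. No arrays overlapped, yet the difference of 0.77 (SE 0.23, adjusted p = 0.0514) missed the threshold, and WT replicate 2 was lowest of the WT arrays. Within slide 2 it was 0.42. Cyp2c38 probe A_52_P468564 also had no overlap, at -1.50 (adjusted p = 0.0775). Cyp2c29 (0.30), Cyp2c39 (0.05), Cyp2c40 (0.06 and -0.08), Cyp2c37 (0.25 and 0.33), Cyp2c44 (-0.22) and Cyp2c55 (-0.21) overlapped between the genotypes.

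The Cyp1a genes, targets of AHR, overlapped between the genotypes in liver. Cyp1a2 was at 0.67 on probe A_52_P595871 (levels of 5.36 to 6.00 in sg/sg and 4.24 to 5.42 in WT livers, adjusted p = 0.0571) and at 0.39 on A_51_P450140 (adjusted p = 0.212). Cyp1a1 was at -0.41 (SE 0.25, adjusted p = 0.271), and the Cyp1b1 probes were not measured in liver. Cyp2e1, the ethanol-inducible enzyme, differed by 0.06 with a 95% interval of -0.31 to 0.42, Cyp2f2 by -0.09 (-0.28 to 0.10) and Cyp2r1, a vitamin D hydroxylase, by -0.05 (-0.28 to 0.18). Of the Cyp2j epoxygenases, Cyp2j6 had no overlap between genotypes at -0.25 (adjusted p = 0.0541), while the 2 probes of Cyp2j5 were at -0.07 and -0.21. Cyp2s1 was at 0.75 (adjusted p = 0.101) and Cyp2u1, a fatty acid hydroxylase, at 0.26 (adjusted p = 0.276). Macrophage markers summed to 7.27 to 7.72 on sg/sg and 6.77 to 7.40 on WT liver arrays (5 of 15 markers higher, 1 lower). Of the zonal hepatocyte markers 2 of 10 pericentral were higher and 1 of 10 periportal was lower. The median differences of both zonal lists were alike, at 0.23 (pericentral) and 0.22 (periportal). Of all liver probes 8.09% were called higher and 6.48% lower. The part of the macrophage and zonal markers in these results was not tested.

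The widest spread in liver lay within each genotype and was shared by probes of related genes. Cyp2b9, a female-predominant gene in mice, had levels of 1.82, -0.81, 0.57, 2.52 and 2.86 in sg/sg livers at probe A_51_P467076, against 2.55, 5.63, -0.89, 3.95 and 3.86 in WT livers. The WT arrays alone spanned a range of 91.9-fold, with WT replicate 2 highest and WT replicate 3 lowest of all 10, and the difference of -1.63 had a 95% interval of -4.10 to 0.84. Cyp2b13 A_51_P492339, at -0.33, -3.03, -1.62, 0.32 and 0.87 in sg/sg livers and 0.15, 3.39, -3.27, 1.57 and 1.75 in WT livers, was likewise highest in WT replicate 2 and lowest in WT replicate 3. The Cyp2b10 probe A_51_P182362 (a CAR target, -1.47, adjusted p = 0.227) and both Cyp2c38 probes were also highest in WT replicate 2. The Cyp3a genes had their own order. Cyp3a11, a PXR target, had levels of 5.23, 4.12, 5.01, 6.10 and 5.42 in sg/sg livers, against 5.48, 6.06, 6.09, 5.29 and 6.60 in WT livers, so that sg/sg replicate 2 was lowest and WT replicate 5 highest. Cyp3a16, Cyp3a41 and Cyp3a44 had the same lowest and highest array, with differences of -0.72 to -0.80 for these 4 genes, and none passed (adjusted p between 0.0912 and 0.178). The file headers place the Cyp3a41 probe (chr5:144587472-144587531, mm7) close to the measured Cyp3a44 probe A_52_P571006 (chr5:144587795-144587854). Whether probes of these genes read each other's RNA was not tested, so they may not be separate readings of 4 genes. The Cyp3a25 probes differed by 0.01 (A_51_P489367) and 0.0034 (A_52_P380314) and Cyp3a13 was highest in sg/sg replicate 2. Over all 55 probes sg/sg replicate 2 was the lowest array on 17 and WT replicate 2 the highest on 13 and the lowest on 12.

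**Figure D2:**
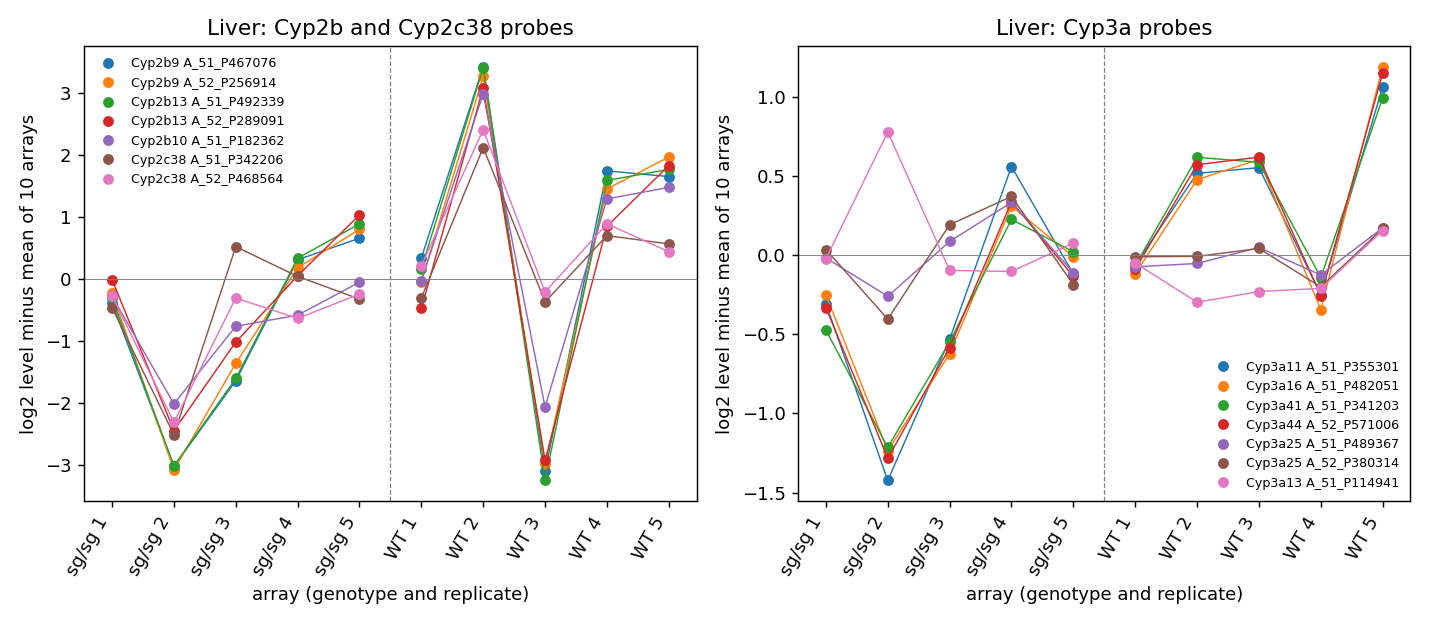
Each probe's liver level minus its mean over the 10 liver arrays (log2, vertical axis), by array with sg/sg left of WT; lines link the values of 1 probe and imply no order of the arrays. The Cyp2b and Cyp2c38 probes (left) peak in WT replicate 2 and the Cyp3a11, Cyp3a16, Cyp3a41 and Cyp3a44 probes (right) are lowest in sg/sg replicate 2 and highest in WT replicate 5, while Cyp3a25 stays near 0.

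Because Cyp2b9 and Cyp2b13 moved together across the livers, their upstream windows are shown with the half-site AGGTCA in capitals (RefSeq, GRCm38.p6, the 250 bases before the annotated start; Cyp2b9 at chr7:26173159-26173408 and Cyp2b13 at chr7:26061245-26061494, both plus strand):
Cyp2b9: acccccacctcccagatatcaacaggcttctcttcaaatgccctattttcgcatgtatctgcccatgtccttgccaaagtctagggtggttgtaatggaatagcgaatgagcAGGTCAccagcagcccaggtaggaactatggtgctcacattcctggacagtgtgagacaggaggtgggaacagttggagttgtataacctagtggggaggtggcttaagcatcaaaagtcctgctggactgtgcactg
Cyp2b13: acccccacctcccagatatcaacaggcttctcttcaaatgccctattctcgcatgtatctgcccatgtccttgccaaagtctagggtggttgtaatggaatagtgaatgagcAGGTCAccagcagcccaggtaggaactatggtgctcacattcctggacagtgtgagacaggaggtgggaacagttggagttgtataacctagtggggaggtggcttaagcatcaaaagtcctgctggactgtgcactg
The 2 windows were identical at 248 of 250 bases (99.2%), whereas each shared 71.4% with that of Cyp2b10. The match begins 138 bases before the start in both. AGGTCA, searched on both strands, occurred in the windows of 11 of the 37 member genes with a RefSeq window and in 14.0% of all 32851 windows. No stretch like those of the Cyp2a probes was shared between Cyp2b probes, and whether they read each other's RNA was not tested.

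In WAT, 10 of the 51 member probes passed (limma, adjusted over all 32319 probes), 3 higher and 7 lower in sg/sg, which at 19.6% was near the 21.9% of all WAT probes (12.8% higher, 9.14% lower). The higher genes were Cyp1a1, Cyp2f2 and Cyp2d22, and the lower ones Cyp2c44, Cyp2c70, Cyp2r1 and the Cyp2b genes Cyp2b9, Cyp2b10 and Cyp2b13. Other measured probes of Cyp2d22, Cyp2b9 and Cyp2b10 did not pass. The genotypes did not overlap on 6 member probes (11.8%) against 20.8% of all WAT probes, 3 higher (12.1% of all) and 3 lower (8.71%). The median difference was 0.07 for members and 0.08 for all probes. With another background correction (normexp on the mean and background signals) the median of all WAT probes moved to 0.49 and 1488 of all WAT probes passed. None of these 10 passed with it while 2 other members did, and the values are given beside each gene. Leaving out WT replicate 3 and sg/sg replicate 5, the arrays with the most hepatocyte marker signal, left 10 calls with 9 in common. Over all WAT probes 4454 were then called, against 7080. Leaving out sg/sg replicates 1 and 2, the arrays with the least and the most kidney marker signal, left 7 member calls with 6 in common. Over all WAT probes 3464 were then called. Both settings were chosen after seeing the data.

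Cyp1a1, the hydrocarbon-oxidising enzyme induced through AHR, was higher in sg/sg WAT. Its levels were -5.12, -3.87, -5.18, -5.46 and -5.36 in sg/sg WAT, against -9.40, -6.37, -8.11, -7.98 and -9.38 in WT WAT. All sg/sg arrays lay above all WT arrays. The probe was well above background on 5 of 5 sg/sg but only 2 of 5 WT arrays, so it was kept through the sg/sg arrays and the size of its rise is not settled. The fitted rise was 3.25 (SE 0.56, limma adjusted p = 0.00343). With each dim value raised to at least the lowest signal that counted as well above background on its array, the rise was 2.76 (6.75-fold). That setting was chosen after seeing the data and also narrows the spread of the WT arrays, so its p is not given. The difference was 4.09, 2.06 and 4.12 within slides 4, 5 and 6, and 2.92 without the arrays with the least and the most kidney marker signal. All WT arrays of slides 4 and 6 were dim for this probe. Only the 2.06 of slide 5 therefore compares values well above background in both genotypes. With normexp it was 1.90 (adjusted p = 0.130). Cyp1a2, in the same gene pair, had overlapping levels of -8.20 to -6.23 in sg/sg and -8.64 to -6.12 in WT WAT (0.46, adjusted p = 0.584). Cyp1b1, the family member typical of tissues other than liver, was at -0.24 (levels of 0.48 to 1.06 in sg/sg and 0.63 to 1.86 in WT WAT, adjusted p = 0.490).

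The window upstream of Cyp1a1 is shown for the AHR core motif GCGTG, in capitals (RefSeq, GRCm38.p6, chr9:57697363-57697612, plus strand):
Cyp1a1: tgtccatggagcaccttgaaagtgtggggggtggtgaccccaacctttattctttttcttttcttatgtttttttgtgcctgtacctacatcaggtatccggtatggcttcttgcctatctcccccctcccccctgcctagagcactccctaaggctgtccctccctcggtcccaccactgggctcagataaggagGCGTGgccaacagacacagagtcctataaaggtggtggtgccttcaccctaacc
The match begins 54 bases before the start. GCGTG, searched on both strands, was found in the windows of 5 of the 37 member genes (Cyp1a1, Cyp1b1, Cyp2b10, Cyp2j13 and Cyp2j9) and in 28.2% of all windows. Of the AHR pathway genes in the list of regulators, Tiparp, itself an AHR target, rose in sg/sg WAT by 0.48 (SE 0.12, adjusted p = 0.0156). Ahr was at 0.17, Arnt at 0.43 and the repressor Ahrr at -0.47 (adjusted p between 0.101 and 0.526).

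Cyp2f2, known for oxidising naphthalene in lung airway cells, had levels of 0.25, 0.87, 1.36, -0.57 and -2.70 in sg/sg WAT, against -2.16, -2.44, -1.66, -2.03 and -2.80 in WT WAT. 4 sg/sg arrays lay above all WT arrays, and sg/sg replicate 5 lay within the WT range. The rise of 2.06 (SE 0.66, limma adjusted p = 0.0480) was 2.06, 2.49 and 2.13 within slides 4, 5 and 6. It was past the threshold in only 1 of the 10 fits that left out an array (without sg/sg replicate 5, 2.70, adjusted p = 0.00275). It missed the threshold with the slide as a block (adjusted p = 0.0626) and with normexp (2.04, adjusted p = 0.0991). Without sg/sg replicates 1 and 2 it was 1.58 (adjusted p = 0.215), and without WT replicate 3 and sg/sg replicate 5 it was 2.83 (adjusted p = 0.00592). Epithelial, mesothelial and epididymal markers summed to 4.82 to 5.38 on sg/sg and 3.60 to 5.06 on WT WAT arrays, with 3 of 10 higher and none lower, and their part in the Cyp2f2 result was not tested. Cyp2d22 rose on 1 of its 3 probes, A_52_P478420, with levels of -1.62, -1.86, -1.39, -1.74 and -1.84 in sg/sg WAT and -2.61, -2.35, -2.42, -2.23 and -2.06 in WT WAT (0.64, SE 0.13, no overlap, adjusted p = 0.00762; with normexp 0.90, adjusted p = 0.0637). The other 2, A_51_P124126 and A_52_P49391, were at 0.47 and 0.34, and both had sg/sg replicate 4 far below the other sg/sg arrays; without that array each passed. Cyp2e1, the brightest member probe in WAT, was at 5.46, 5.56, 5.48, 5.01 and 4.81 in sg/sg WAT and 4.40, 2.01, 4.79, 4.06 and 4.60 in WT WAT. All sg/sg arrays lay above all WT arrays, yet the difference of 1.29 (SE 0.47, adjusted p = 0.0768) missed the threshold, with WT replicate 2 far below the other WT arrays; without it Cyp2e1 passed.

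**Figure D3:**
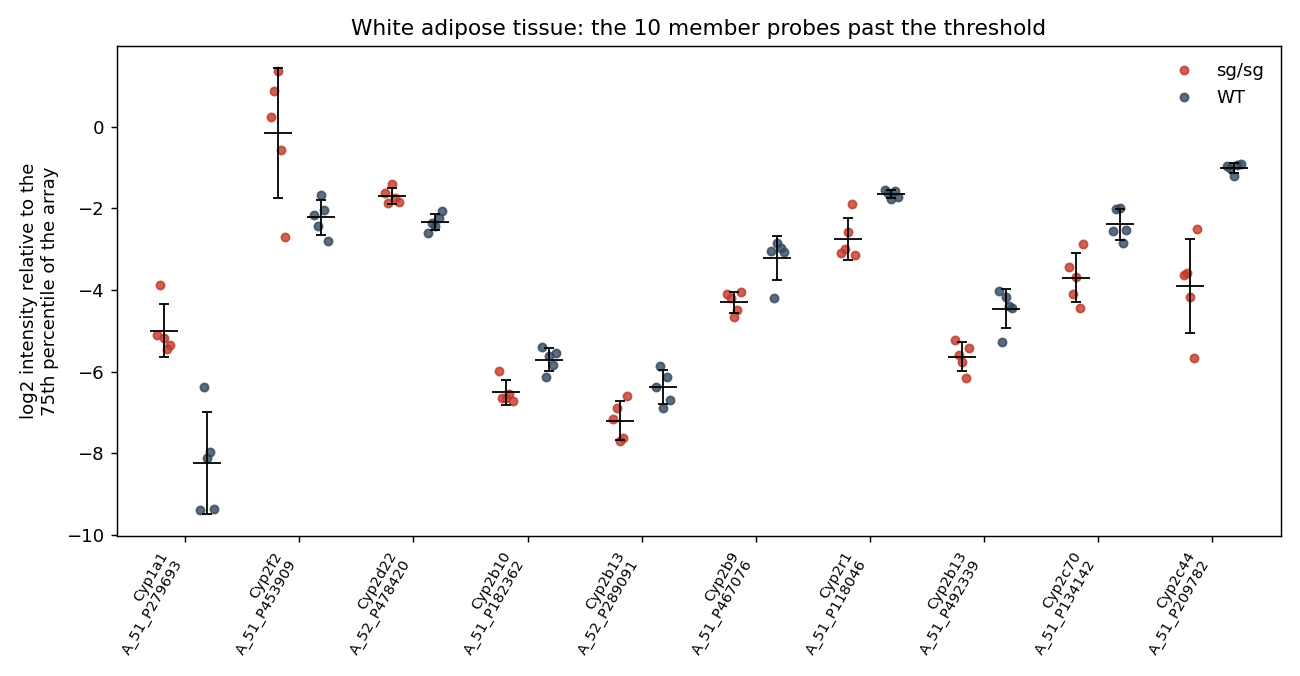
Levels of the 10 member probes past the threshold in WAT (vertical axis, log2 intensity relative to the 75th percentile of the array), with sg/sg left of WT, 1 point per array and the mean with its SD as bars (n = 5 each). Cyp1a1 and Cyp2d22 are separated upwards and Cyp2c44, Cyp2c70 and Cyp2r1 downwards in sg/sg, while the Cyp2b probes and Cyp2f2 overlap between the genotypes.

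Of the lower genes, Cyp2c44 (Cyp2c23 in RefSeq), an epoxygenase of arachidonic acid, had levels of -3.63, -3.59, -4.16, -5.66 and -2.50 in sg/sg WAT, against -0.95, -1.01, -1.21, -0.92 and -0.91 in WT WAT. The WT arrays lay close together and the sg/sg arrays spread more widely below all of them. The fall was 2.91 (SE 0.46, 7.5-fold, limma adjusted p = 0.00244), and it was -3.54, -2.66 and -2.42 within slides 4, 5 and 6 and -1.52 with normexp (adjusted p = 0.0905). Cyp2c70 had levels of -3.44, -4.09, -3.67, -4.44 and -2.88 in sg/sg WAT, against -2.56, -2.01, -2.0, -2.86 and -2.52 in WT WAT. It fell without overlap by 1.32 (SE 0.29, adjusted p = 0.0105; within slides -1.99, -1.01 and -0.76), with normexp -0.24 (adjusted p = 0.684), and without sg/sg replicates 1 and 2 -1.27 (adjusted p = 0.0549). Cyp2r1, the vitamin D hydroxylase, had levels of -3.09, -2.99, -2.58, -1.90 and -3.14 in sg/sg WAT, against -1.55, -1.62, -1.76, -1.57 and -1.72 in WT WAT. It fell without overlap by 1.10 (SE 0.22, 2.14-fold, adjusted p = 0.00701; within slides -0.79, -1.50 and -1.15), with normexp -0.61 (adjusted p = 0.238), and without sg/sg replicates 1 and 2 -0.90 (adjusted p = 0.0543). Macrophage markers summed to 7.52 to 7.92 on sg/sg and 7.99 to 8.68 on WT WAT arrays, with 9 of 16 lower and none higher, and 4 of 10 stromal markers were lower; their part in the lower P450 genes was not tested.

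The 7 Cyp2b probes had differences of -1.17 to -0.34 in WAT, of which 4 passed, all lower in sg/sg, beside 9.14% of all WAT probes called lower. The probes that did not pass were Cyp2b9 A_52_P256914 (-0.72, limma adjusted p = 0.308), Cyp2b10 A_52_P472486 (-1.01, adjusted p = 0.0680) and Cyp2b19 A_51_P352763 (-0.34, adjusted p = 0.119). Cyp2b9 A_51_P467076 had levels of -4.11, -4.21, -4.66, -4.49 and -4.06 in sg/sg WAT, against -3.03, -4.19, -2.84, -2.98 and -3.07 in WT WAT (-1.08, SE 0.25, limma adjusted p = 0.0130). 4 WT arrays lay above all sg/sg arrays and WT replicate 2 lay among them. Cyp2b13 A_51_P492339 had the same pattern at -5.23, -5.60, -5.76, -6.16 and -5.43 in sg/sg WAT and -4.03, -5.27, -4.18, -4.39 and -4.45 in WT WAT (-1.17, SE 0.25, adjusted p = 0.00853). Cyp2b10 A_51_P182362 had levels of -5.98, -6.65, -6.65, -6.55 and -6.73 in sg/sg WAT and -5.40, -6.12, -5.61, -5.85 and -5.56 in WT WAT (-0.80, SE 0.18, adjusted p = 0.0112), with a difference of 0.0046 within slide 5. Here sg/sg replicate 1 and WT replicate 2 crossed. Without WT replicate 3 and sg/sg replicate 5, the arrays with the most hepatocyte marker signal, Cyp2b10 A_51_P182362 missed the threshold (-0.73, limma adjusted p = 0.0598). Cyp2b13 A_52_P289091 overlapped more widely, at -7.71 to -6.61 in sg/sg WAT and -6.89 to -5.85 in WT WAT (-0.82, adjusted p = 0.0467), a call lost in 8 of the 10 fits that left out 1 array and with the slide as a block (adjusted p = 0.0851). With normexp these 4 probes were at 0.04, 0.51, 0.94 and 1.06, so the sign of their differences turned with the background correction. Under it the median of all WAT probes was 0.49 (0.08 without it), so that Cyp2b9 lay below that median, Cyp2b13 A_51_P492339 close to it and the other 2 probes above it.

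Several members with no genotype difference past the threshold within WAT varied across the WAT arrays along with markers of other organs. Hepatocyte markers summed to 0.97, 0.61, 0.69, 1.34 and 3.13 on the sg/sg WAT arrays and to 0.70, 1.04, 3.66, 0.63 and 0.29 on the WT WAT arrays, so that WT replicate 3 and sg/sg replicate 5 stood out. In WAT 12 of the 15 listed markers were measured, Alb among them and Ttr and Fga not, and none passed. The probes of Cyp2c29, Cyp2c40 and Cyp2a12 and the Cyp2c37 probe A_51_P498882 were highest on the same 2 arrays: Cyp2a12 had levels of -6.90, -9.83, -9.45, -9.30 and -6.03 in sg/sg WAT and -8.90, -7.59, -5.03, -7.78 and -10.27 in WT WAT. Among the probes called in WAT, Cyp2c70 (-2.0 and -2.88) and Cyp2b9 A_51_P467076 (-2.84 and -4.06) were also highest of their genotype in WT replicate 3 and sg/sg replicate 5. The other called probes were not highest of their genotype on both. Kidney markers, a list added after seeing the data, summed to -1.69, 4.31, 2.29, 3.0 and 2.92 on sg/sg and to 2.55, 2.44, -1.24, 1.59 and 1.36 on WT arrays, with all 12 measured and 1 of them, Slc7a13, higher. Cyp2j5, abundant in kidney and liver of mice, followed them in sg/sg WAT, with levels of -9.56, -1.04, -3.25, -3.06 and -2.37 at probe A_52_P315766 against -3.28, -4.35, -4.20, -4.35 and -4.52 in WT WAT. The probes of Cyp2a4 and Cyp2a5 were likewise highest in sg/sg replicate 2 and lowest in sg/sg replicate 1. The part of either tissue's RNA in these values was not tested.

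**Figure D4:**
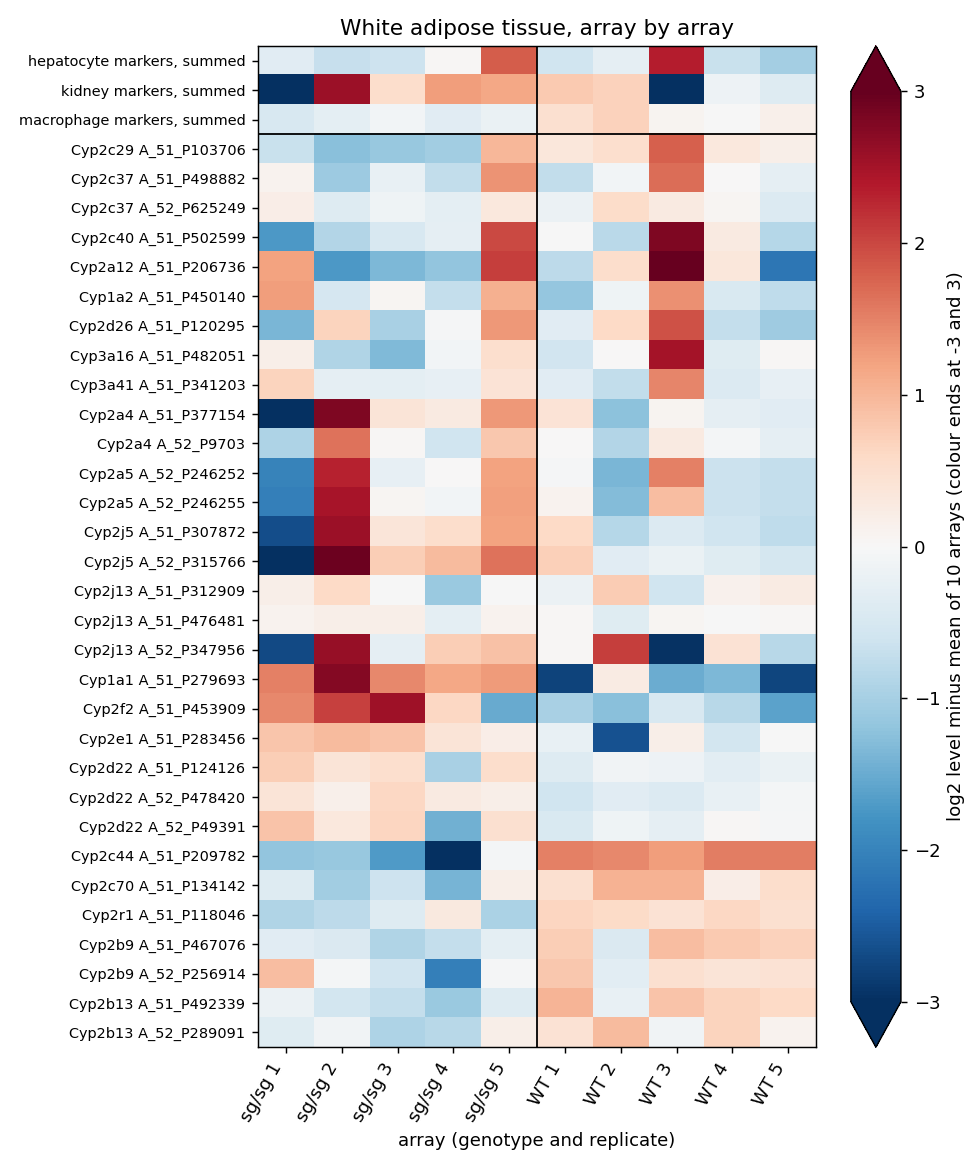
Level minus the mean over the 10 WAT arrays (log2, colour, ends at -3 and 3) of member probes (rows) and of 3 summed marker lists (top rows) on each WAT array (columns, sg/sg left of WT). Like the hepatocyte markers, Cyp2c29, Cyp2c40, Cyp2a12, Cyp2d26, Cyp3a16 and Cyp2c37 A_51_P498882 are highest of their genotype in sg/sg 5 and WT 3. Cyp1a2 and Cyp3a41 are highest in WT 3 but, among sg/sg arrays, in sg/sg 1, and other P450 genes of liver do not follow these markers. The Cyp2a4, Cyp2a5 and Cyp2j5 probes follow the kidney markers in sg/sg 1 and sg/sg 2, and Cyp1a1, Cyp2c44 and Cyp2r1 divide by genotype.

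The genotype effect was then compared between the tissues on the 44 probes measured in both, as the liver effect minus the WAT effect in 1 limma fit of all 20 arrays. Both tissues came from the same mice, but the labels do not link their arrays and the fit had no term for the mouse. Its SEs and p-values therefore take the 20 arrays as independent. Of these, 7 passed (15.9%), against 19.8% of 24363 probes, 4 with the liver effect above the WAT effect (9.37% of all) and 3 below (10.5%). At an unadjusted p under 0.05 there were 11 members (25%) against 33.5% of all. With median scaling the split over all probes was 1535 above and 2893 below, against 2283 and 2549 here, and 9 members passed. Cyp1a1 had an effect of -0.41 in liver and a fitted 3.25 in WAT (-3.67, SE 0.64, adjusted p = 0.000575), a size that rests on WT WAT arrays of which 3 of 5 were dim. With dim values raised as above it was -3.17, again without a p for the same reason. Cyp2c70 ran in opposite directions, at 0.77 in liver and -1.32 in WAT (2.08, SE 0.39, adjusted p = 0.000947), and its WAT effect alone passed in its tissue. Cyp2c44 (2.69, adjusted p = 0.00110) and Cyp2r1 (1.05, adjusted p = 0.00575) had effects of -0.22 and -0.05 in liver and of -2.91 and -1.10 in WAT. Cyp2f2 (-2.15, adjusted p = 0.0335), Cyp2c29 (1.55, adjusted p = 0.0337) and Cyp2j11 A_51_P423085 (-1.15, adjusted p = 0.0399) passed less firmly, each losing the call in 7, 8 and 11 of the 20 fits without 1 array. With the slide as a fixed block Cyp1a1 (-4.18, adjusted p = 0.0263) and Cyp2c44 (2.95, adjusted p = 0.0410) passed and the other 5 did not. Of those 5, Cyp2c70 was then at 1.78, Cyp2r1 at 1.22, Cyp2f2 at -2.35, Cyp2c29 at 1.5 and Cyp2j11 at -0.43 (adjusted p between 0.0956 and 0.660). With normexp only Cyp2f2 of the 7 did (-2.11, adjusted p = 0.0397). The Cyp2j11 probe shares 30 bases with a probe of its neighbour Cyp2j13, with 2 mismatches in capitals, and the Cyp2j13 probe A_51_P476481 was at 0.05 in liver and 0.10 in WAT:
Cyp2j11 A_51_P423085: atgggcagtttaagaagaAagaatcCtttc
Cyp2j13 A_51_P476481: atgggcagtttaagaagaGagaatcTtttc

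**Figure D5:**
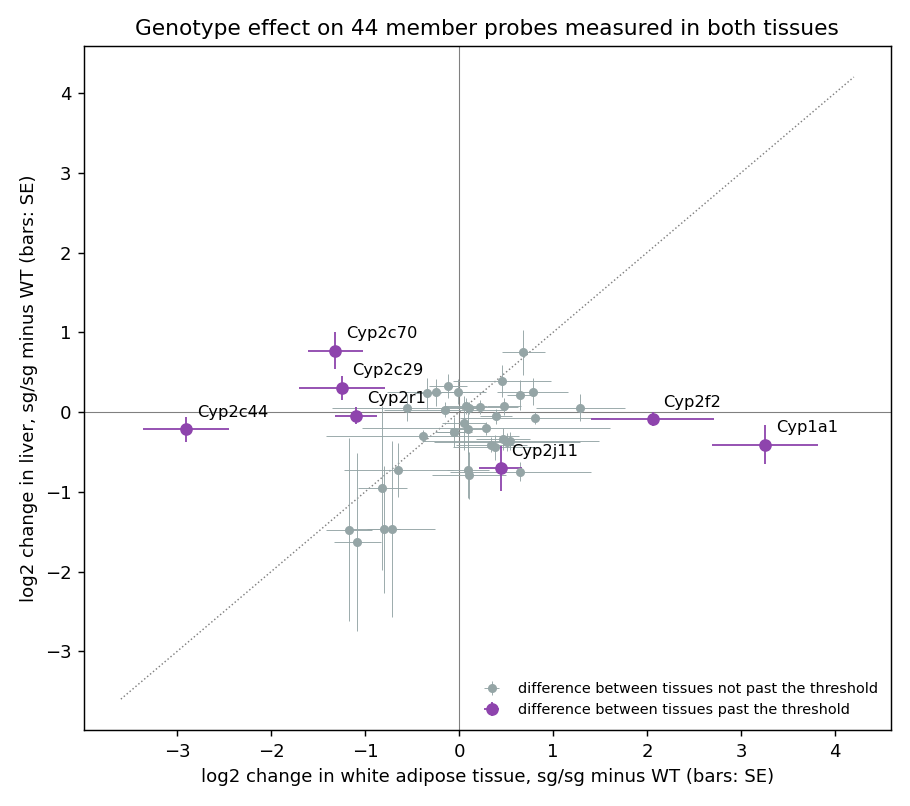
Genotype effect in WAT (horizontal axis) and in liver (vertical axis), both as log2 differences of sg/sg minus WT with SE bars, for the 44 member probes measured in both tissues; the dotted line marks equal effects. The 7 named probes lie off that line, with Cyp1a1 and Cyp2f2 far to the right and Cyp2c44 far to the left near a liver effect of 0.

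The genotype effects on Cyp2c70 and Cyp2f2 differed between the tissues and ran in opposite directions in WAT. The windows upstream of both hold AGGTCA on the coding strand, here in capitals (RefSeq, GRCm38.p6; Cyp2c70 at chr19:40187287-40187536, minus strand, Cyp2f2 at chr7:27119705-27119954, plus strand), beginning 74 and 221 bases before the start:
Cyp2c70: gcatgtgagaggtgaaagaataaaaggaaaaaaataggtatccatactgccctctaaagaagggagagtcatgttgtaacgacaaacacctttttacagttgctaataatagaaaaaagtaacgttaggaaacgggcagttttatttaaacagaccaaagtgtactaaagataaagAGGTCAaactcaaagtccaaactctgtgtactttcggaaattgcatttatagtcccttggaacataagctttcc
Cyp2f2: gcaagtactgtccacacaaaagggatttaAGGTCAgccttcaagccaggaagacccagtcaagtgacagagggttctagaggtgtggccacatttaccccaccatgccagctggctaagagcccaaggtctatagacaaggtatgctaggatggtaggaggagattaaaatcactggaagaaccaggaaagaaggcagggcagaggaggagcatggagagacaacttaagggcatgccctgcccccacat
Of the other genes whose effect differed between the tissues, Cyp2c29 also had a match in its window. None was found for Cyp1a1, Cyp2r1, Cyp2j11 and Cyp2c44, of which Cyp2c44 had no window. AGGTCA occurred in 14.0% of all windows. A match of these letters is a description and does not show a binding site, and its part in the genotype effects was not tested.

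Between the tissues themselves, 42 of the 44 probes had a higher scaled level in liver than in WAT in both genotypes, with a median liver-minus-WAT difference of 8.60 in sg/sg and 8.85 in WT mice, with each array scaled to its own 75th percentile. The 2 exceptions were Cyp2s1, at -1.58 in liver and 1.85 in WAT of sg/sg mice and -2.32 and 1.17 in WT mice, and Cyp2j9, at -0.18 and 1.21 in sg/sg and 0.07 and 1.27 in WT mice. The liver-minus-WAT difference of Cyp2c44 was 9.53 in sg/sg and 6.84 in WT mice. Cyp1b1 was measured in WAT only.

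The genes that serve or control these enzymes were taken from 3 lists, whose counts stand beside 8.09% of all probes called higher and 6.48% lower in liver, and 12.8% higher and 9.14% lower in WAT. Of 21 regulators measured in liver, 1 was lower, Nr1i2, the gene of PXR, with levels of 3.16, 3.29, 3.34, 3.42 and 3.21 in sg/sg livers and 3.75, 3.64, 4.04, 3.69 and 4.0 in WT livers (-0.54, SE 0.10, adjusted p = 0.0119), and none was higher. The list of redox partners also held the epoxide hydrolases Ephx1 and Ephx2. None of its 8 genes and no haem gene (of 12) passed in liver. In WAT 2 of 22 regulators rose, Tiparp and Cebpa (0.60, adjusted p = 0.0101), the adipocyte transcription factor, and 1 fell, Cux2 (-1.91, adjusted p = 0.00722), a factor of female-type P450 expression in mouse liver. Of the 8 redox partners and epoxide hydrolases 3 rose in WAT, among them the P450 reductase Por. Por had levels of 5.73, 5.84, 5.68, 6.03 and 5.61 in sg/sg and 5.11, 4.86, 5.13, 5.2 and 5.13 in WT WAT (0.69, SE 0.11, limma adjusted p = 0.00236). The other genes of this list that rose were Pgrmc1 (0.41) and Pgrmc2 (0.31), while the epoxide hydrolase Ephx1 fell by 1.10 (adjusted p = 0.00834). Of the 12 haem genes in WAT 2 of synthesis rose, Alad (0.88, adjusted p = 0.00189) and Ppox (0.32), and 2 of breakdown fell, the haem oxygenase Hmox1 (-1.50, adjusted p = 0.00287) and the biliverdin reductase Blvra (-0.69). The median difference in WAT was 0.36 for the regulators, 0.29 for the redox partners and epoxide hydrolases and -0.05 for the haem genes, beside 0.08 for all probes. Adipocyte markers were higher on 5 of 12 and lower on 1, and macrophages express Hmox1; the part of either cell type in these values was not tested.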

How the data were processed

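RNA of liver and WAT of 5 sg/sg and 5 WT mice was hybridised to 20 one-colour (Cy3) Agilent arrays of 60-base probes. The deposited intensity values are the processed signals of Agilent Feature Extraction 9.5 (submitters' processing notes), background-subtracted per the file headers, with probe positions on mouse build mm7; the values of the series' value table are the same intensity values per probe, as deposited, with a relative difference of 0. Their medians per array were, for replicates 1 to 5, 55.5, 60.0, 64.9, 43.8 and 42.5 in sg/sg liver, 57.4, 64.0, 56.6, 65.6 and 55.5 in WT liver, 156, 117, 149, 88.8 and 150 in sg/sg WAT, and 131, 221, 159, 176 and 152 in WT WAT. Their scale is linear and they are not centred.

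From the deposited intensity, log2 values were computed here and each array's 75th percentile was subtracted. Of 45018 spots, 43379 were not controls; spots flagged as outliers were left out and spots of a probe averaged. The number of arrays limits the precision. Genotypes were compared within each tissue with limma 3.58.1 in R 4.3.3 (lmFit and eBayes, Benjamini-Hochberg over all probes tested, threshold 0.05), on probes well above background on at least 4 arrays and missing on at most 2. The difference of the genotype effects between tissues came from 1 fit of all arrays. The code was tested on simulated data. Summed marker levels are log2 of the summed scaled intensity of each gene's brightest probe. Alternatives covered background correction, scaling, filters, the slide, the replicate number as a block, the samples in the fit and leaving out each array.

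The members and lists were chosen with earlier results of these data known. Named are members past a threshold, members of a fixed gene list, the brightest member probe of each tissue, list genes past the threshold, and Rora; Cyp2c38, Cyp2d13, Cyp2j9, Cyp2j13, Cyp2b19, Ahr, Arnt and Ahrr fall outside this rule and were picked with their values in view. The kidney list, the 2 settings that leave out 2 WAT arrays and the one that raises dim values were also chosen after seeing the data. Of the 66 member probes, 57 matched a RefSeq gene and 9 keep the file's name. Same-numbered samples of sg/sg and WT correlated between -0.112 and 0.168 in liver and between -0.136 and 0.086 in WAT (deviations from the group means), so the numbers did not pair the samples. Same-numbered liver and WAT samples correlated between -0.098 and 0.106 in sg/sg and between -0.046 and 0.165 in WT mice. Which of them came from the same mouse stayed unknown.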

Additional observations from a re-analysis of the deposited data

Results flagged for a closer look

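Within groups of 5 arrays, a single array stood apart from the rest on 21 of 170 group and probe combinations (12.4%), where chance gives about 1 in 20; the values are the gap to the nearest array divided by the group's range, with a critical value of 0.71. In WAT, sg/sg replicate 4 was lowest for Cyp2d22 A_51_P124126 (0.791), Cyp2d22 A_52_P49391 (0.763), Cyp2d9 A_51_P124133 (0.770), Cyp2d9 A_51_P478303 (0.797) and Cyp2j6 (0.815). Replicate 1 of sg/sg WAT was highest for Cyp2b10 A_51_P182362 (0.760) and Cyp2b10 A_52_P472486 (0.762) and lowest for Cyp2j5 A_52_P315766 (0.741). Replicate 2 of sg/sg WAT was highest for Cyp1a1 (0.785), and replicate 5 for Cyp2c29 (0.738). WT WAT replicate 3 was highest for Cyp2c29 (0.796), Cyp3a11 (0.781), Cyp3a16 (0.802) and Cyp3a41 (0.777). WT WAT replicate 2 was lowest for Cyp2b10 A_52_P472486 (0.840), Cyp2b9 A_51_P467076 (0.832) and Cyp2e1 (0.738), and WT WAT replicate 1 highest for Cyp2j5 A_52_P315766 (0.740). In liver, sg/sg replicate 2 was highest for Cyp3a13 (0.796) and lowest for Cyp2d9 A_51_P478303 (0.725), and WT replicate 3 was lowest for Cyp2c55 (0.730).

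The genotype effect differed between the tissues, as the liver effect minus the WAT effect, for Cyp1a1 (-3.67), Cyp2c70 (2.08), Cyp2c44 (2.69), Cyp2r1 (1.05), Cyp2f2 (-2.15), Cyp2c29 (1.55) and Cyp2j11 A_51_P423085 (-1.15).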

How the results depend on the processing

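The number of member probes past the threshold in liver, 3, was 10 with normexp background correction, 7 with median scaling, 1 with no filter on dim probes, 8 on probes well above background on all arrays, 5 with 1 probe per gene, 9 with eBayes with trend and robust, 6 with dim values raised to the floor of their array (10 in WAT and 7 between the tissues), 1 with all 20 arrays in 1 fit, 0 with the slide as a fixed block (limma, 10 at an unadjusted p under 0.05), and 0 when only slide 2 was used (limma, 13 at an unadjusted p under 0.05, as were 7.96% of all probes). Over all liver probes the calls, 3600, were 4732 with normexp, 3156 with median scaling and 1245 of 41153 with no filter. They were 3825 of 21826 on probes well above background on all arrays and 2774 of 16891 with 1 probe per gene. With trend and robust they were 3996, with dim values raised 3659, with all 20 arrays 3400 and with the slide as a fixed block 3. Leaving out 1 liver array gave 1 to 6 members. There was 1 without WT replicate 4 (1155 of all probes). There were 6 without WT replicate 5 (4111) or without sg/sg replicate 5 (2225). In WAT the number, 10, was 2 with normexp and 0 within each of slides 4, 5 and 6 (limma; 11, 17 and 12 at an unadjusted p under 0.05, as were 14.8, 13.3 and 15.7% of all probes), and 8 to 13 without 1 array. Slides 2 and 6 held 1 WT array and slide 5 held 1 sg/sg array, which is assumed to vary like the other genotype's arrays on its slide, so these counts say nothing about stability. Over all WAT probes the calls, 7080, were 1488 with normexp. Without 1 array they were 5038 (without WT replicate 1) to 10041 (without sg/sg replicate 4). The number of differences between the tissues, 7, was 4 with no filter on dim probes and 2 with the slide as a fixed block. Without 1 array it was 4 to 11 (4 without WT liver replicate 3 or without sg/sg WAT replicate 2, 11 without sg/sg WAT replicate 4). Over all probes these differences, 4832, were 4559 of 41153 with no filter and 770 with the slide as a fixed block. They were 4046 without WT liver replicate 3, 4334 without sg/sg WAT replicate 2 and 6262 without sg/sg WAT replicate 4. The sign turned in WAT for Cyp2b10 A_51_P182362 (0.94 with normexp, 0.0046 within slide 5), Cyp2b9 A_51_P467076 (0.041 with normexp), Cyp2b13 A_51_P492339 (0.51 with normexp) and Cyp2b13 A_52_P289091 (1.06 with normexp), and for the Cyp2c29 difference between tissues (-0.32 with normexp). Normexp was run with an offset of 50 added to every spot, and moved the median of all WAT probes from 0.08 to 0.49. The 75th percentile of the deposited signals was 1352 to 2053 on sg/sg and 1936 to 2598 on WT WAT arrays. The part of the offset in the moved median and the turned signs was not tested. With the replicate number as a block, which did not pair the samples, 2 member probes passed in liver, 10 in WAT and 7 between the tissues, and all liver probes past the threshold numbered 1659 against 3600, all WAT probes 4488 against 7080. Of the single probe results, 2275 stayed on the same side of the threshold, 57 passed it newly, 132 lost it and 6 changed sign. Signs were compared only where a result passed in the main fit or in the alternative, so results that passed in neither may also have changed sign. Dim WAT probes, such as that of Cyp1a1 (well above background on 2 of 5 WT arrays), are limited by the signal over background.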
